A study of Mus musculus with 18 samples.

Results

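The genes described are 10 cardiac fibroblast identity genes, Pdgfra, Tcf21, Dcn, Lum, Gsn, Dpt, Pi16, Mfap5, Wt1 and Ddr2. They were chosen by name, as genes that mark the fibroblast lineage of the heart. They are 10 of the 30072 genes in the table, and all 10 were among the 15054 genes that passed the filter on low counts. Heart tissue from 18 CD-1 mice was sequenced, 1 library per mouse. The 6 control mice (ctrl) were kept under isoflurane anesthesia without the radiation dose, 6 mice were taken 2 weeks (2wk) and 6 mice 6 weeks (6wk) after a single dose of 25 Gy under the same anesthesia. No time of collection is given for the controls. CD-1 is an outbred wild-type strain, all mice were at least 8 weeks old, males and females were used, and no label names the sex of a given mouse. The labels name the intraventricular septum and gamma rays, where the study's methods name ventricular tissue, an X-ray source and sham controls that also had CT imaging.

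Fibroblasts build and maintain the collagen network of the heart, and most of them descend from the epicardium, the cell layer that covers it. Resting fibroblasts carry the receptor Pdgfra and the transcription factor Tcf21 and secrete small proteoglycans that coat collagen fibrils. After injury, fibroblasts can divide, lower some of these resting genes and turn on contractile and matrix genes. The septum is a mixture of cells, and in bulk RNA a loss of cells of a type and less RNA per cell cannot be told apart.

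Total counts ranged from 11522987 to 15501019 per mouse, and 3 counts, taken as the floor of detection, were worth 0.194 to 0.26 CPM (counts scaled to library size). This range and the floor cover counting error only. The lowest count of any member in any mouse was 49, for Wt1 in a control, so every member was measured above that floor in all 18 mice. CPM below are TMM-scaled (trimmed mean of M-values, a correction of library size for composition), and the TMM factors differed between the groups, with overlap between controls and 2 weeks: 0.844 to 0.991 in controls, 0.962 to 1.04 at 2 weeks and 1.04 to 1.13 at 6 weeks. Mitochondrially encoded genes took 19.8 to 25% of the counts in controls, 17.8 to 20.6% at 2 weeks and 16.5 to 20% at 6 weeks. No 2 libraries held identical values. Differences were tested with edgeR's quasi-likelihood test in a single fit of the 3 groups, two-sided, with P values adjusted by the Benjamini-Hochberg method over the 15054 genes, and a gene is called at an adjusted P under 0.05.

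At 6 weeks post-IR, Pdgfra, Gsn and Pi16 fell and Wt1 rose against controls, each by less than 2-fold, and the other 6 members were not called. At 2 weeks, Pdgfra alone among the 10 was called, lower than in controls. From 2 to 6 weeks, Pi16 alone was called, lower at 6 weeks. The matrix genes Dcn, Lum, Dpt and Mfap5, the collagen receptor Ddr2 and the lineage factor Tcf21 were called in none of the 3 comparisons.

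**Figure D1:**
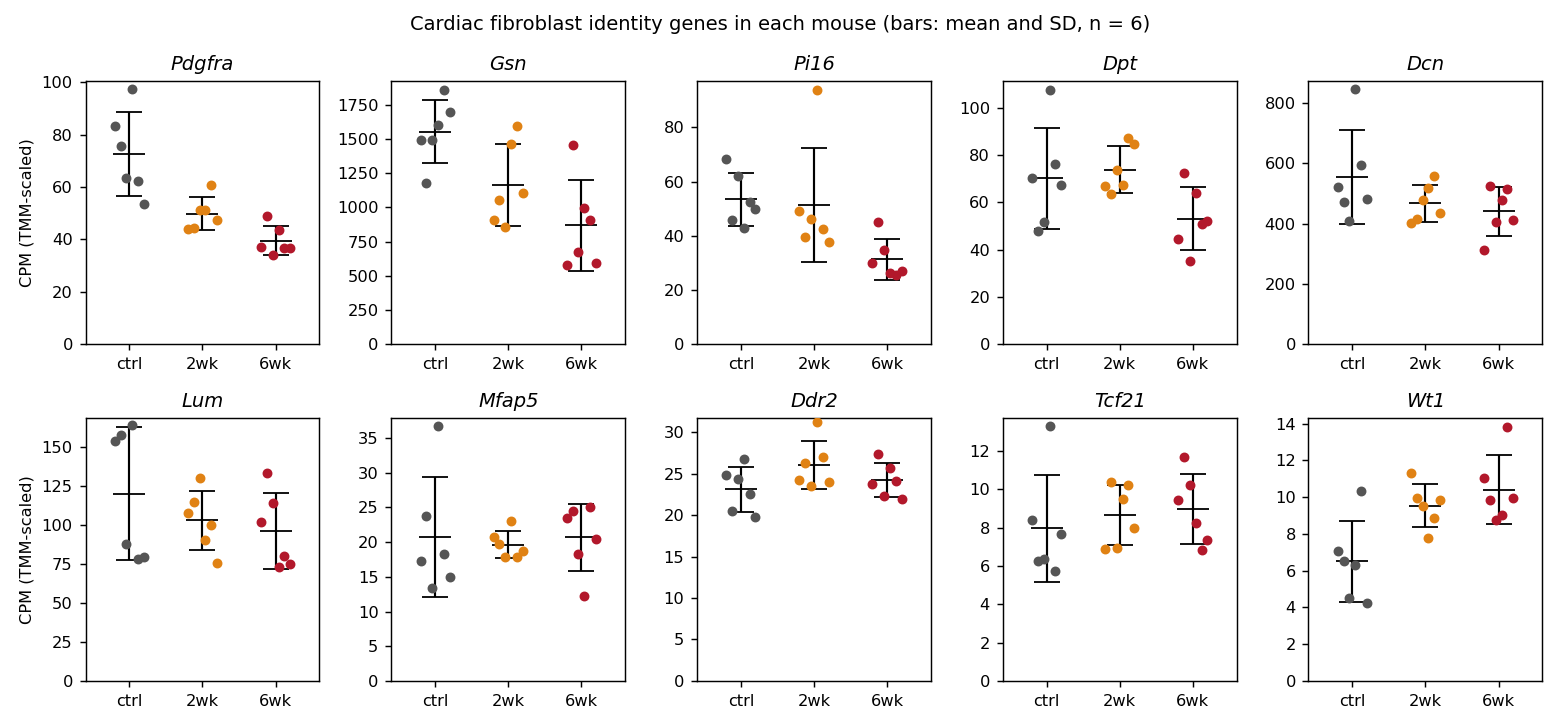
Each panel plots the TMM-scaled CPM of a member in the 18 mice, by group, with a bar for the mean and whiskers for the SD (n = 6), on an axis that starts at 0. The 6wk mice of Pdgfra (34.1 to 48.9 CPM) sit below every control (53.7 to 97.3 CPM), while the groups of the other 9 members overlap.

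The starts of the 3 genes that fell at 6 weeks are shown because these genes were lower in the same comparison. Each sequence holds the 250 bases before a transcription start of RefSeq (build GRCm38.p6), 5′ to 3′ on the strand of the gene. Of the 10 members, 6 had a window in the RefSeq promoter table, 8 windows in all. The Pdgfra window is chr5:75152001-75152250, plus strand. The Gsn window is chr2:35282130-35282379, plus strand, and lies inside the gene. It is the third of 3 Gsn windows in the table and is shown because bases after its start match a GENCODE transcript. The Pi16 window is chr17:29318632-29318881, plus strand, and also lies inside the span of its gene. Capitals mark the GC box GGGCGG, a motif bound by Sp factors, searched on both strands together with the E-box CAGCTG, the AP-1 motif TGANTCA and the TEAD motif GGAATG. These motifs do not overlap in the windows printed.
Pdgfra: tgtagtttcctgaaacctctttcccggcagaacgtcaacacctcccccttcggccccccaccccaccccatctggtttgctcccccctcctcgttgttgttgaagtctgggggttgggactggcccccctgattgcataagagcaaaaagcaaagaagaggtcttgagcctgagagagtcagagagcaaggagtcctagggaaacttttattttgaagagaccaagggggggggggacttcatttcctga
Gsn: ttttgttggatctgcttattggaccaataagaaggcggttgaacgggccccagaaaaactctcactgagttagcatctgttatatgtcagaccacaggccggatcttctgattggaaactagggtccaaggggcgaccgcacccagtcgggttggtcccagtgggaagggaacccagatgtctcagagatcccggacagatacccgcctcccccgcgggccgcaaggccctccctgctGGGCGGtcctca
Pi16: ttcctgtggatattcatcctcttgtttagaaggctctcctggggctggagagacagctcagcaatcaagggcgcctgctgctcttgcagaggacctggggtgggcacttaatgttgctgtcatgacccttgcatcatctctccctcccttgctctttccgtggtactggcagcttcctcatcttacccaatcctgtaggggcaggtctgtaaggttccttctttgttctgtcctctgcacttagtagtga
Of the 3 windows printed, that of Gsn alone held any of the 4 motifs, a GC box, and the 2 Gsn windows not printed each held CAGCTG and GGGCGG. Over all 8 windows of the members, GGGCGG was in 3, against 32.7% of the 32817 windows of the same length in the table, and CAGCTG was in 3, against 13.0%. The 3 windows with GGGCGG were all of Gsn, and those with CAGCTG were 2 of Gsn and 1 of Dpt. TGANTCA (6.75% of all windows) and GGAATG (12.6%) were in none of the 8. These matches describe letters in the windows, not binding.

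Levels of different genes are compared here in TPM (transcript abundance), which the authors scaled for transcript length. In controls, Gsn was the highest member with a mean of 544 TPM and Dcn followed with 334.6 TPM, and their mice overlapped. Lum (70.2 TPM) and Dpt (52.3 TPM) came next, below every Dcn value. Pi16 (21.1 TPM), Mfap5 (19.8 TPM), Pdgfra (11.1 TPM), Tcf21 (6.83 TPM), Ddr2 (4.82 TPM) and Wt1 (2.95 TPM) completed the order, Pi16 below every Dpt value and each later neighbour overlapping the next. At 6 weeks the order of means was the same except that Mfap5 (26.1 TPM) stood above Pi16 (16.7 TPM) and Tcf21 (9.97 TPM) above Pdgfra (7.89 TPM), and both of these pairs overlapped. Gsn took 51.5% of the summed TPM of the 10 members in controls, 45.9% at 2 weeks and 40.9% at 6 weeks, while Dcn took 30.9%, 32.9% and 37.5%. The summed TPM ranged from 819 to 1413 in controls (median 1048), from 864.9 to 1270 at 2 weeks (median 931.6) and from 743.3 to 1354 at 6 weeks (median 901.1), and the 3 groups overlapped. Without Gsn and Dcn the mean sum was 189.2 TPM in controls and 200.2 TPM at 6 weeks. In the same libraries the summed TPM of 12 cardiomyocyte markers ranged from 34590 to 44940, so the fibroblast genes were a small share of a tissue that carried its labelled muscle markers.

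The receptors were Pdgfra and Ddr2. Pdgfra (ENSMUSG00000029231, chromosome 5 of GRCm38, 75152292 to 75198215), a tyrosine kinase receptor for platelet-derived growth factor (PDGF) and a surface marker of heart fibroblasts, lay between 53.7 and 97.3 CPM in controls (median 69.5). It lay between 43.9 and 60.6 CPM at 2 weeks (median 49.3) and between 34.1 and 48.9 CPM at 6 weeks (median 36.9). Of the 6 mice at 2 weeks, a single mouse, number 5, stood above the lowest control, and all 6 mice at 6 weeks stood below it. Against controls, Pdgfra stood at -0.55 on the log2 scale at 2 weeks (SE 0.128, adjusted P = 0.0193). At 6 weeks it fell by 45.6% (log2 fold change -0.88, SE 0.129, adjusted P = 8.43e-05). From 2 to 6 weeks it was -0.33 (adjusted P = 0.135), which did not pass, and it passed without control mouse 4 and 6wk mouse 2, at -0.41 (adjusted P = 0.0389), an exclusion chosen after the values were seen. The 2-week call was lost with scaling to library size only (-0.41, adjusted P = 0.0727) and on log2(TPM + 1) (-0.25, adjusted P = 0.222). Ddr2 (ENSMUSG00000026674, chromosome 1, 169972307 to 170110762), a tyrosine kinase receptor that binds fibrillar collagen, lay between 19.8 and 26.9 CPM in controls, 23.6 and 31.2 CPM at 2 weeks and 22.0 and 27.4 CPM at 6 weeks. Its groups overlapped throughout, and its coefficient of variation, 8.48 to 11.7% within groups, was the lowest of the members in controls and at 6 weeks. At 6 weeks its log2 fold change was 0.06 (95% interval -0.12 to 0.25, adjusted P = 0.646), so a change as large as that of Pdgfra lay outside the interval.

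Gsn and Pi16 encode an actin regulator and a cell surface protein. Gsn (ENSMUSG00000026879, chromosome 2, 35256380 to 35307892) encodes gelsolin, which severs and caps actin filaments, and it is high in fibroblasts without being confined to them. It lay between 1178 and 1858 CPM in controls (median 1550), between 853.5 and 1595 CPM at 2 weeks (median 1081) and between 581.6 and 1455 CPM at 6 weeks (median 793.4). At 6 weeks the groups overlapped through mouse 2 alone, since the other 5 mice (581.6 to 999.2 CPM) lay below every control. At 2 weeks the log2 fold change of Gsn was -0.42 (SE 0.207, adjusted P = 0.265). At 6 weeks it fell by 44.1% (log2 fold change -0.84, SE 0.208, adjusted P = 0.00598). Without control mouse 4 and 6wk mouse 2 it was -1.04 (adjusted P = 0.000906). That exclusion was chosen after the values were seen, and it drops the 6wk mouse through which the groups overlapped. The spread of Gsn between mice was wider after irradiation, with a coefficient of variation of 14.8% in controls, 25.9% at 2 weeks and 38.4% at 6 weeks, a difference that was not tested.

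Pi16 (ENSMUSG00000024011, chromosome 17, 29317680 to 29330593), peptidase inhibitor 16, marks fibroblasts of the connective tissue around vessels. It lay between 42.8 and 68.2 CPM in controls (median 51.1), between 37.7 and 93.7 CPM at 2 weeks (median 44.5) and between 25.4 and 45.0 CPM at 6 weeks (median 28.4). The widest value, 93.7 CPM, belonged to 2wk mouse 4, while the other 5 mice of that group did not exceed 49.2 CPM. At 6 weeks, mouse 2 stood above the lowest control and the other 5 mice (25.4 to 34.9 CPM) below every control. The log2 fold change of Pi16 at 2 weeks was -0.05 (adjusted P = 0.913). At 6 weeks it fell by 41.3% (log2 fold change -0.77, SE 0.204, adjusted P = 0.00929). The 6-week call was lost with library size only (-0.51, adjusted P = 0.0713) and on log2(TPM + 1) (-0.32, adjusted P = 0.218). From 2 to 6 weeks it was -0.71 (SE 0.204, adjusted P = 0.0473), a call near the threshold that was lost when any of 14 of the 18 mice was left out. Without 2wk mouse 4 it was -0.46 (adjusted P = 0.0974).

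**Figure D2:**
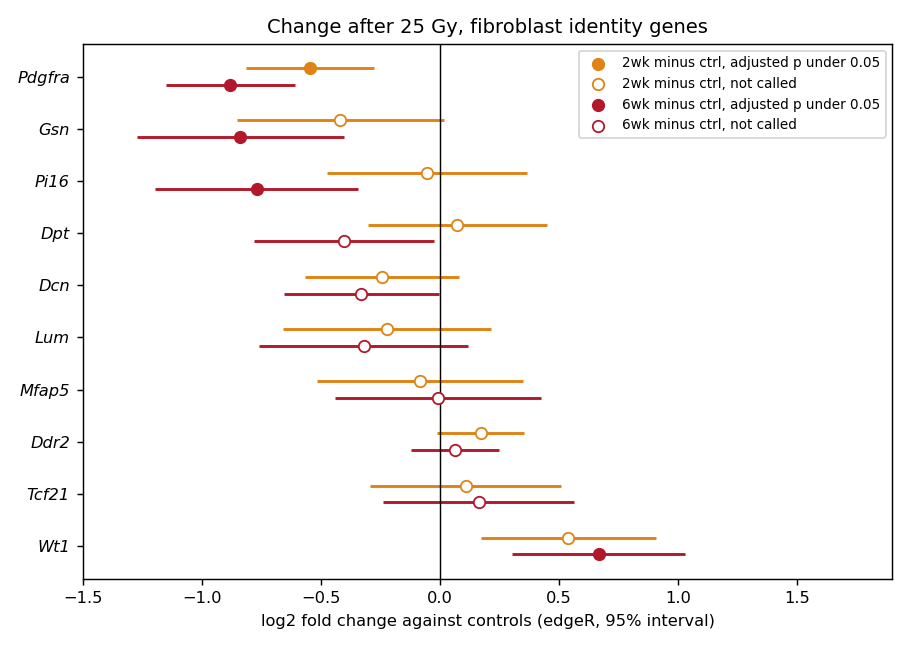
The x axis gives the edgeR log2 fold change of each member at 2 weeks (orange) and 6 weeks (red) against the same 6 controls, with 95% intervals, and filled points are called. Pdgfra (-0.88), Gsn (-0.84) and Pi16 (-0.77) lie to the left at 6 weeks and Wt1 (0.67) to the right.

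The matrix members were 2 small leucine-rich proteoglycans and 2 other matrix proteins, and edgeR called none of them in any comparison. An unadjusted P under 0.05 was reached by Dcn and Dpt at 6 weeks and by Dpt between the times. Dcn (ENSMUSG00000019929, chromosome 10, 97479609 to 97518143) encodes decorin, which binds collagen fibrils and limits their thickness. It lay between 407.3 and 846 CPM in controls (median 500.2), 401.3 and 558.1 CPM at 2 weeks (median 455.8) and 312.1 and 523 CPM at 6 weeks (median 445). Control mouse 4 was the highest of all 18 mice, and the groups overlapped. At 6 weeks the log2 fold change was -0.33 (95% interval -0.65 to -0.01, adjusted P = 0.131), and on log2(TPM + 1) it was 0.10. Lum (ENSMUSG00000036446, chromosome 10, 97565128 to 97572703), lumican, lies close to Dcn and encodes a proteoglycan of the same family. Its controls split between 3 mice at 77.8 to 87.5 CPM and 3 mice at 153.7 to 164 CPM, and the 6wk mice (72.8 to 133.1 CPM, median 90.9) lay below the higher of these ranges. At 2 weeks Lum lay between 75.7 and 129.7 CPM, and its log2 fold change at 6 weeks was -0.32 (95% interval -0.76 to 0.12, adjusted P = 0.291), or 0.15 on log2(TPM + 1).

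Dpt (ENSMUSG00000026574, chromosome 1, 164796644 to 164824266) encodes dermatopontin, a small matrix protein that binds decorin and collagen. It lay between 47.8 and 107.8 CPM in controls (median 68.9), between 63.7 and 87.1 CPM at 2 weeks (median 70.4) and between 35.3 and 72.4 CPM at 6 weeks (median 51.5). All groups overlapped, and the highest and lowest of the 18 mice were control mouse 4 and 6wk mouse 3. The 6-week log2 fold change was -0.40 (95% interval -0.78 to -0.02, adjusted P = 0.114), and it was called without 6wk mouse 2 (-0.51, adjusted P = 0.0483) but was 0.01 on log2(TPM + 1). From 2 to 6 weeks it was -0.48 (adjusted P = 0.13), called without control mouse 4 and 6wk mouse 2 (-0.58, adjusted P = 0.0283), an exclusion chosen after the values were seen. Mfap5 (ENSMUSG00000030116, chromosome 6, 122505845 to 122529290), a glycoprotein of fibrillin microfibrils, lay between 13.4 and 36.7 CPM in controls, 17.8 and 23.0 CPM at 2 weeks and 12.2 and 25.0 CPM at 6 weeks. The control range enclosed all irradiated mice except 6wk mouse 4. Its log2 fold change at 6 weeks was -0.01 (95% interval -0.44 to 0.42, adjusted P = 0.982), and without control mouse 4, the highest, it was 0.24 (adjusted P = 0.325).

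The transcription factors were Tcf21 and Wt1. Tcf21 (ENSMUSG00000045680, chromosome 10, 22817281 to 22820174) is a basic helix-loop-helix factor needed for fibroblasts to form from the epicardium. It lay between 5.75 and 13.3 CPM in controls (median 7.03), 6.90 and 10.4 CPM at 2 weeks (median 8.74) and 6.84 and 11.7 CPM at 6 weeks (median 8.83). The highest of the 18 mice was again control mouse 4, and the other 5 controls did not exceed 8.40 CPM. The log2 fold change at 6 weeks was 0.16 (95% interval -0.24 to 0.56, adjusted P = 0.588), and on log2(TPM + 1) it was 0.53 and called (adjusted P = 0.0254).

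Wt1 (ENSMUSG00000016458, chromosome 2, 105126529 to 105173616), a zinc finger factor of the epicardium that is also known from endothelial cells after injury, was the member that rose. It lay between 4.23 and 10.4 CPM in controls (median 6.41), between 7.78 and 11.3 CPM at 2 weeks (median 9.68) and between 8.75 and 13.8 CPM at 6 weeks (median 9.89). Control mouse 5 held the highest control value, and the other 5 controls (4.23 to 7.10 CPM) lay below all 12 irradiated mice. At 2 weeks the log2 fold change of Wt1 was 0.54 (SE 0.175, adjusted P = 0.0811). At 6 weeks it was 58.6% higher than in controls (log2 fold change 0.67, SE 0.174, adjusted P = 0.00849). At 2 weeks it was called without control mouse 5 (0.72, adjusted P = 0.0162) and by DESeq2 (0.55, adjusted P = 0.0367). Of 9 tested epicardial and mesothelial markers listed beside it, 1 was called at 6 weeks, Aldh1a2, a retinoic acid synthesis enzyme, at 1.40 (adjusted P = 0.00222). The median of the 9 was -0.05, and the mesothelial genes Upk3b (-1.44, adjusted P = 0.193) and Msln (-1.54, adjusted P = 0.184) had the lowest values, neither called. The summed TPM of the 10 listed genes present in the data, tested or not, was 4.16 to 9.36 in controls and 8.59 to 13.5 at 6 weeks. None of these was at 0 in every mouse. Among 10 endothelial markers, 3 were called higher and 4 lower, with a median of 0.03, or 6 higher and 2 lower with library size only. Their summed TPM was 427.1 to 593.1 in controls and 612.9 to 870.9 at 6 weeks, ranges that do not overlap. The sums of both lists carry the upward shift of all genes on the TPM scale, a median of 0.29 on log2(TPM + 1) at 6 weeks. The part of either cell type in the Wt1 result was not tested.

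At 2 weeks, 0 of the 10 members were called higher and 1 lower, where 3.09% and 1.93% of all genes tested were called in these directions. At an unadjusted P under 0.05 there were 2. DESeq2 called 2 members, beside 694 genes called higher and 522 lower among all genes tested. Limma voom called 1, and its calls over all genes are not given here. No member passed an absolute log2 fold change above 1 as well, which 0.903% of all genes did, and no member had groups without overlap, which 3.24% of all genes did. At 6 weeks, 1 was called higher and 3 lower, where 13.5% and 11.5% of all genes were called, and 6 had an unadjusted P under 0.05. No member passed the fold threshold, against 5.95% of all genes, and 1, Pdgfra, had groups without overlap, against 9.23%. Between the time points, 0 were called higher and 1 lower (3.31% and 2.01% of all genes), and 3 had an unadjusted P under 0.05. None passed the fold threshold (1.14%) and none had groups without overlap (3.54%). DESeq2 called the same member, Pi16, beside 717 genes called higher and 447 lower among all genes tested. The share of all genes with an unadjusted P under 0.05 was not counted. The counts of members at that level therefore cannot be read as particular to the members. The median log2 fold change of the 10 members was -0.07 at 2 weeks, -0.33 at 6 weeks and -0.10 between the times, beside medians of all genes between -0.02 and 0.00. Both comparisons with controls share the same 6 control mice, so their values are set side by side and are not independent of each other.

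The direction of the smaller differences depended on how the mice were scaled. With TMM, 7 of the 10 members had a negative log2 fold change at 6 weeks, with library size only 6, and on log2(TPM + 1) 3. These settings also moved the median of all genes tested, from -0.02 with TMM to 0.24 with library size only and 0.29 on log2(TPM + 1), and the share of calls that were higher from 54% to 94.4% and 98.4%. Of the 15054 genes tested, 2029 were called higher with TMM, 5494 with library size only and 7354 on log2(TPM + 1). Relative to that median, 6 of the 10 members were below it in all 3 settings. Pdgfra and Gsn were called lower and Wt1 higher at 6 weeks under all 3, whereas Dcn, Lum and Dpt changed sign on TPM, Mfap5 changed sign with library size only (0.25) and on TPM (0.43), and Ddr2 was called higher with library size only (0.32, adjusted P = 0.0189) and on log2(TPM + 1) (0.44, adjusted P = 0.00697).

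**Figure D3:**
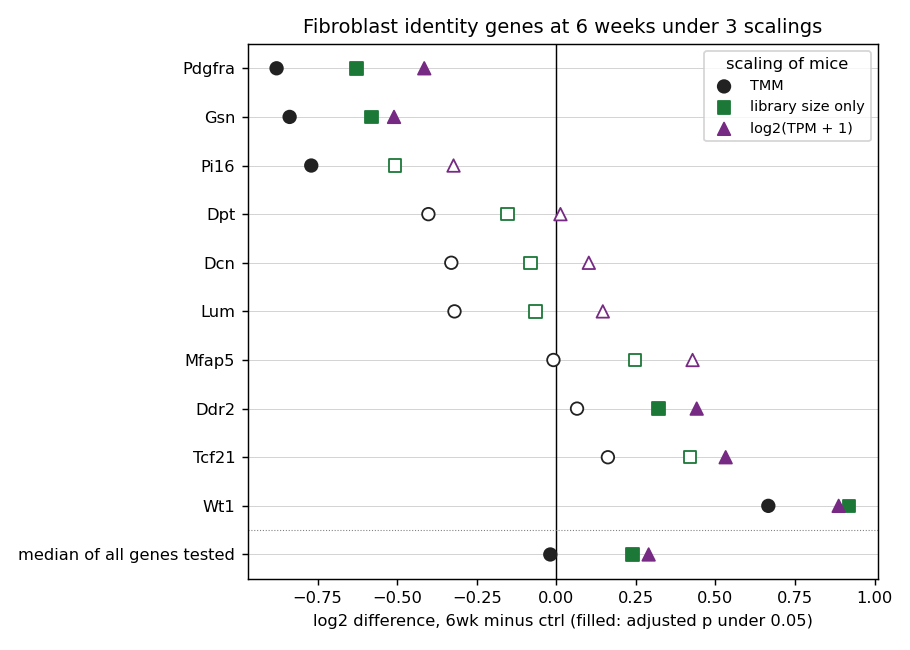
The x axis gives the 6-week log2 difference of each member under TMM scaling (circles), library size only (squares) and log2(TPM + 1) (triangles), filled where the adjusted P is under 0.05. The lowest line gives the median of all genes tested, whose points are always filled and carry no P. The whole set shifts to the right together with that median, from -0.02 to 0.24 and 0.29, and Pdgfra and Gsn stay to the left and Wt1 to the right of 0.

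Within groups the members varied together in part. After the group mean was subtracted from log2 CPM, the 45 pairs of members had a median Pearson r of 0.35 over the 18 mice, from -0.30 for Tcf21 with Wt1 to 0.76 for Dcn with Dpt. These mice share depth and tissue sampling within each library, and r is given as a description. Pdgfra followed the others most closely (median r 0.57 with the other 9), and Wt1 (0.06) and Pi16 (0.11) least. Control mouse 4 was the highest of its group for 7 members and 6wk mouse 2 for 8. Control mouse 4 also had the highest summed TPM of its group for fibrillar and type VI collagen genes (758.8 TPM, group median 287.4) and the lowest for cardiomyocyte markers (34590 TPM, group median 41290). Without both mice, an exclusion chosen after the values were seen, the same number of members, 4, was called at 6 weeks. Genes most like the mean of the members within groups included Lrp1 (r = 0.88), Fbln1 (0.85), Ptx3 (0.85) and Lrfn2 (0.84).

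**Figure D4:**
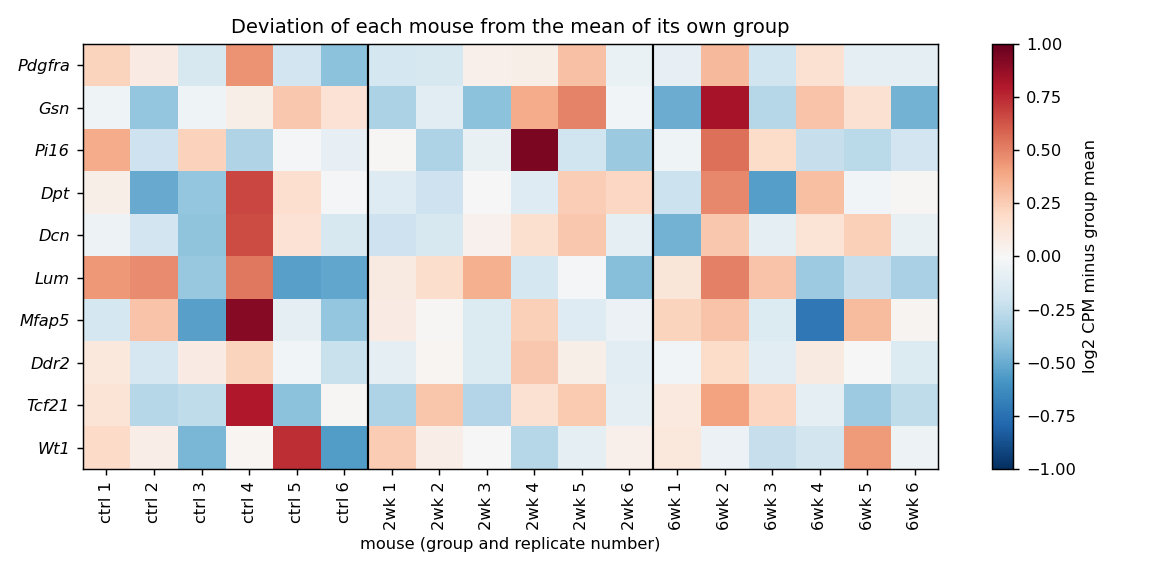
Each cell gives the log2 CPM of a member in a mouse minus the mean of that mouse's own group, on a colour scale from -1 (blue) to 1 (red). The column of control mouse 4, highest of its group for 7 members, and that of 6wk mouse 2, highest for 8, are mostly red.

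Genes of the same biology were counted in the same fit. Counts given with library size only stand beside 5494 of 15054 genes called higher and 326 lower under that setting, so they are not particular to a list. Of 16 other resting fibroblast genes, 8 were called lower and 3 higher at 6 weeks, but 1 lower and 3 higher with library size only and 5 lower and 3 higher without control mouse 4. Those called lower included Htra3, a secreted protease (-1.01, adjusted P = 0.000605), Abca8a, a lipid transporter (-0.48, adjusted P = 0.00156), and Sema3c, a secreted guidance factor (-0.52, adjusted P = 0.00172). The 3 called higher were Ly6a, the surface antigen Sca-1 (0.82, adjusted P = 0.000269), Cd248, endosialin (0.55, adjusted P = 0.00924), and Thy1, a surface glycoprotein (0.84, adjusted P = 0.0236). Of 11 tested relatives of Dcn and Lum, 2 were called lower (1 with library size only), Ecm2 (-0.64, adjusted P = 0.000307) and Ogn, osteoglycin (-0.52, adjusted P = 0.00937). Of 10 microfibril and elastic fibre genes, the setting of Mfap5, 1 was called, Efemp2, a fibulin (0.62, adjusted P = 0.0105), and 3 were called higher with library size only, with limma voom and without control mouse 4. Of 6 PDGF ligands and sister receptors of the receptor members, the ligands Pdgfb (0.74, adjusted P = 0.000225) and Pdgfa (0.27, adjusted P = 0.0426) were called higher and none lower, or 4 higher with library size only and 1 without control mouse 4. Of 6 gelsolin relatives, Capg, an actin capping protein of macrophages (1.49, adjusted P = 0.00023), was called higher, and Svil, supervillin (-0.34, adjusted P = 0.000749), was called lower, or 2 higher and none lower with library size only.

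Activated fibroblast and collagen genes were counted beside the members. Of 12 activated fibroblast genes, 3 were called higher at 6 weeks and none lower: Fn1, fibronectin (1.54, adjusted P = 0.000478), and the transcription factors Meox1 (1.55, adjusted P = 0.000605) and Runx1 (1.36, adjusted P = 0.00115). The median log2 fold change of the 12 was -0.17, and the lowest value, -1.58, was not called. With limma voom, and separately without control mouse 4, 5 of the 12 were called higher, with medians of -0.02 and 0.48. Of 9 fibrillar and type VI collagen genes, Col6a1 (0.35, adjusted P = 0.0299) and Col5a3 (0.85, adjusted P = 0.0464) were called higher and none lower. Without control mouse 4, 6 of the 9 were called higher, and 4 without control mouse 4 and 6wk mouse 2. With limma voom 3 were called higher, and also 3 with library size only, beside 5494 of 15054 genes. The calls over all genes without control mouse 4 are not given here. Col1a1, a major fibrillar collagen, stood at 898.7 CPM in control mouse 4 and at 170.3 to 326.3 CPM in the other controls. Its log2 fold change at 6 weeks was 0.10 (adjusted P = 0.85), and 0.63 (adjusted P = 0.0196) without that mouse. Col3a1 stood at 1094 CPM in the same mouse and at 220.9 to 393.1 CPM in the other controls. It was at 0.18 (adjusted P = 0.718), and at 0.70 (adjusted P = 0.00554) without that mouse. These exclusions were chosen after the values were seen.

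Markers of other cells moved at the same time as the members. Of 12 macrophage and myeloid markers, 11 were called higher at 6 weeks, with a summed TPM of 101.2 to 365 in controls and 408.4 to 585 at 6 weeks. Of 6 tested T and B cell markers, 3 were called higher, 1 with limma voom and 6 with library size only. The 9 listed summed to 0.695 to 1.68 TPM in controls against 3.45 to 4.98 TPM. The control means of the 3 called, Cd8a (0.149 CPM), Cd79b (0.217 CPM) and Cd79a (0.232 CPM), lay within or below the detection floor of 0.194 to 0.26 CPM. Of 12 cardiomyocyte markers, 9 were called lower, though 2 were lower and 1 higher with library size only, with 34590 to 44940 TPM in controls and 36700 to 40730 TPM at 6 weeks. Of 9 pericyte and smooth muscle markers, 2 were called higher and 1 lower, or 3 higher and none lower with library size only (562.1 to 797.9 TPM and 695.5 to 797.4 TPM). Of 5 tested Schwann cell markers, 1 was called lower, and none with library size only (3.16 to 6.40 TPM and 3.05 to 7.07 TPM for the 6 listed). Of 4 tested adipocyte markers none was called by edgeR or by limma voom, with unadjusted edgeR P values of 0.492 or more. The 5 listed adipocyte markers summed to 1.84 to 9.07 TPM in controls and 0.799 to 16.7 TPM at 6 weeks. Summed TPM also carries the upward shift of all genes on that scale, and counts with library size only stand beside 5494 of 15054 genes called higher. No marker of these lists was at 0 in every mouse, and their part in the lower Pdgfra, Gsn and Pi16 was not tested.

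**Figure D5:**
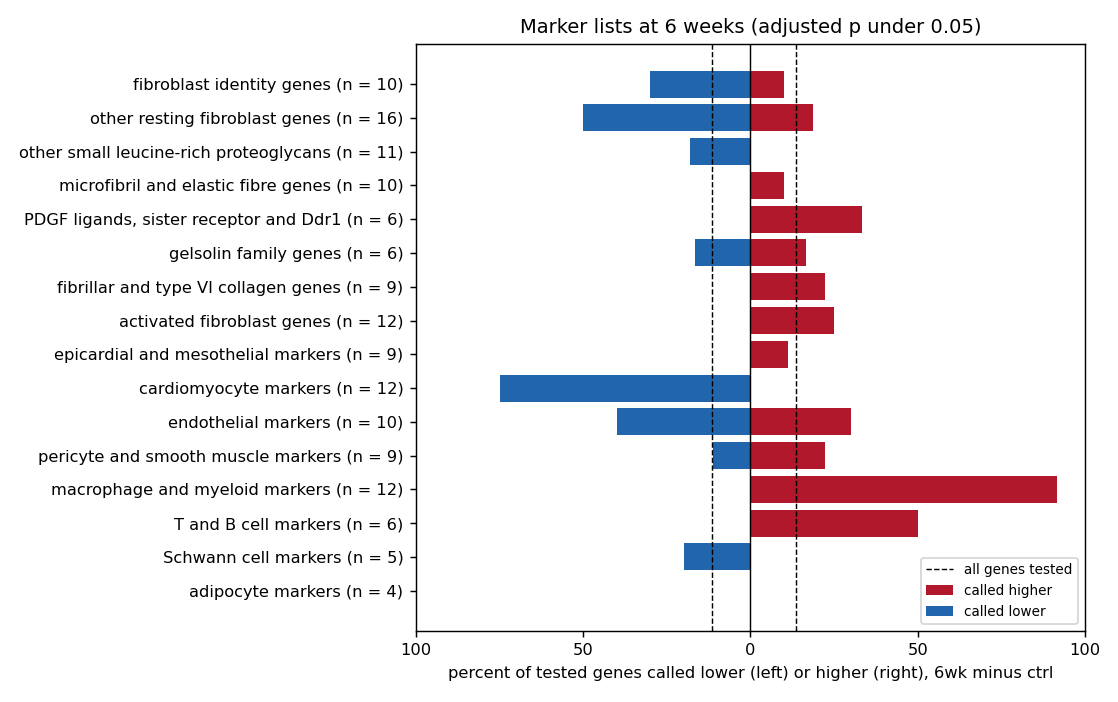
Bars give, for each list, the percent of its tested genes called lower (left) or higher (right) at 6 weeks, and dashed lines give the same for all genes tested, 11.5% lower and 13.5% higher. The fibroblast identity genes have 1 of 10 on the right and 3 of 10 on the left, macrophage and myeloid markers 11 of 12 on the right and cardiomyocyte markers 9 of 12 on the left.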

How the data were processed

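RNA was extracted from the septum of each mouse and sequenced in pairs of reads, and the mice were independent replicates. Alignment by the authors used STAR, and transcripts were quantified by Salmon (1.0 in the submitters' processing notes, which also name CASAVA 1.8 and build GRCm38) and summed per gene by tximport. The authors deposited an estimated count per gene and mouse, with no scaling across mice. The deposited TPM values come from the same quantification and are scaled for length and depth within a mouse, so a shift in a few abundant genes moves all others. No source names a sequencing batch. Whether counting used strand is not given in the sources used here. GENCODE M21 places Mir7025, Gm42802 and Gm42803 within Pdgfra, AC162182.1 within Pi16 and 3110045C21Rik within Ddr2, and reads of these could be assigned to the members.

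Rounded estimated counts entered edgeR 4.0.16 (R 4.3.3). A gene was kept where 6 or more mice reached 0.23 CPM, libraries were scaled by TMM, and 1 quasi-likelihood fit held the 3 groups. The SE of a log2 fold change comes from its F statistic, and intervals are 95%. Log2 CPM for correlations used a prior count of 2. Symbols were matched to 29301 genes, and 771 had none. The members and all lists were chosen with earlier results of these data known. Named were all 10 members, at most 3 genes of each direction per list by smallest P among those called at 6 weeks, and the 5 genes most like the members, of which some are not reported here. Col1a1, Col3a1, Upk3b, Msln and Pdgfrb are not covered by this rule; their values were seen first. The code was tested on simulated data. Alternatives were DESeq2 1.42.0, limma 3.58.1 (voom with sample weights, and TPM with pseudocounts 1 and 0.1), other scalings, filters, thresholds and covariates, the replicate number as a block, and leaving out each mouse.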

Additional observations from a re-analysis of the deposited data

Results flagged for a closer look

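Of 144 groups of 6 mice examined for the 48 genes named by rule, 11 held a highest or lowest mouse far from the others. For independent groups of normally spread values, chance would give about 1 in 20, or 7.2. These groups share the same mice and are not independent, so the count is a description. Among the members there were 2 such groups of 30: Tcf21 in control mouse 4 (13.3 CPM, the other controls 5.75 to 8.40) and Pi16 in 2wk mouse 4 (93.7 CPM, the others 37.7 to 49.2). Control mouse 4 was also far above its group for Htra3 (157.4 CPM), Ogn (123.6), Runx1 (15.4) and Aldh1a2 (7.36). The other such values were Actc1 in 2wk mouse 2 (4673 CPM), Flt1 in 6wk mouse 3 (102.1), C1qa in 6wk mouse 6 (43.3), Cd79b in control mouse 5 (0.605) and Cd8a in 2wk mouse 5 (0.53). For Cd79b and Cd8a the other mice of the group reached at most 0.195 and 0.22 CPM, near the detection floor.

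Of the 48 genes, 38 were chosen by their P at 6 weeks on the same 6wk mice, so the next count is a description, beside 3.31% of all genes called higher and 2.01% lower in that comparison. For 17 of the 48 the change from controls differed between 2 and 6 weeks by edgeR's test of 6wk against 2wk. The log2 difference was negative for Pi16 (-0.71), Htra3 (-0.75), Sema3c (-0.55), Svil (-0.29), Actc1 (-0.40), Tek (-0.36) and Kcna1 (-0.67). It was positive for Pdgfb (0.55), Fn1 (0.98), Runx1 (0.95), Pecam1 (0.42), Cdh5 (0.40), Esam (0.24), Mcam (0.84), C1qa (0.66), Ptprc (0.97) and C1qb (0.80). Pi16 was the member among them.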

How the results depend on the processing

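At 6 weeks, Pdgfra, Gsn and Wt1 were called in all 13 alternative settings and without each of the 18 mice in turn, and Pi16 in 10 settings and without each mouse. The exceptions for Pi16 were library size only and both TPM settings. The number of members called at 6 weeks was 4, 0 with an absolute log2 fold change above 1 as well, and 4 to 5 when a mouse was left out (5 without 6wk mouse 2). It was 5 with both TPM settings, where Tcf21 and Ddr2 were called and Pi16 was not, beside 7354 and 7342 of 15054 genes called higher. It was 4 with library size only, with Ddr2 in place of Pi16, beside 5494 genes called higher. At 2 weeks the number was 1 and became 2 with DESeq2, both TPM settings, the replicate block and an adjusted P under 0.10. It was 0 with the fold threshold, and 1 to 2 when a mouse was left out (2 without control mouse 5). With both TPM settings the members called were Wt1 and Ddr2, not Pdgfra, beside 2774 and 2990 of 15054 genes called higher. With library size only the number was 1, Wt1 in place of Pdgfra, beside 1707 genes called higher. Between the times the number was 1 and became 0 with voom weights, library size only, upper quartile factors, no filter, both TPM settings, a fit of the 2 groups alone, the replicate block and the fold threshold, 3 without control mouse 4 and 6wk mouse 2 (chosen after seeing the data), and 0 to 1 when a mouse was left out. The log2 ratio of the members' summed values at 6 weeks was -0.18 in TPM, -0.64 in CPM and 0.08 in TPM without Gsn and Dcn. The cause of these moves was not tested.

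No label says that replicate numbers pair the mice. Deviations of same-numbered mice correlated between -0.08 and 0.11 over 18 pairs, 2 of them above 0.1, and 5 correlated best with their own number. The study used littermate controls, and such correlations cannot show whether same-numbered mice were related. With the replicate number as a block, 586, 3549 and 542 genes were called in the 3 comparisons, against 755, 3760 and 802 without it. Among the members the block added Wt1 at 2 weeks (0.58, adjusted P = 0.0484) and lost Pi16 between the times (-0.68, adjusted P = 0.0901). Library size only moved the calls at 2 weeks from 61.6% to 95.4% higher and those between the times from 62.2% to 91.3%. Sex could be entered only as expression of Y-linked genes, which changed no call of a member. Wt1, with 49 to 185 counts per mouse, was measured with the fewest counts.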

Other observations

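Some genes from the lists around the members had groups that did not overlap at 6 weeks, as did 9.23% of all genes tested. Those described here were named by small P in this same comparison, a choice that favours separate groups. Others named by that rule, among them Pecam1, Mcam and Ptprc, were also without overlap. Ly6a, the surface antigen Sca-1, lay between 57.9 and 91.0 CPM in controls and between 104.4 and 162.7 CPM at 6 weeks, without overlap. Pdgfb, a ligand that binds both PDGF receptors, lay between 8.88 and 15.5 CPM in controls and between 17.5 and 24.8 CPM at 6 weeks, without overlap. Its other receptor Pdgfrb, a marker of pericytes, lay between 131.1 and 163.2 CPM in controls and between 121.6 and 159.2 CPM at 6 weeks. Htra3 lay between 100.6 and 157.4 CPM in controls and between 33.2 and 93.3 CPM at 6 weeks, without overlap, while its 2-week mice (82.8 to 115.3 CPM) overlapped both groups. Of the named genes most like the members within groups, Fbln1 was called at 6 weeks (-0.51, adjusted P = 0.0241), and Lrp1 was at -0.02 (adjusted P = 0.941).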
